A study of Mus musculus with 30 samples.

Results

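Genes for secreted inflammatory and vascular signals were followed in cultures of mouse extraocular muscle, the set of small muscles that turn the eyeball. They were 10 genes: the pattern-recognition protein Ptx3, the lymphatic growth factor Vegfc, the cytokines Il6, Lif and Csf1, and the chemokines Ccl2, Ccl7, Cxcl1, Cxcl5 and Cxcl12. A probe set (the group of short probes that reports 1 transcript on an Affymetrix array) was taken where the platform annotation gave one of these symbols alone. This found 21 of 45265 probe sets, of which the A type held 15 and the B type 6, and 10 of 18194 named genes. The set was chosen by values measured on these arrays: Ptx3 by its difference between 48 h and 0 h and Vegfc by that between 12 h and 0 h. Which values chose the other 8 genes is not recorded. All 10 genes had a probe set on the A arrays, and 4 of them (Ptx3, Vegfc, Cxcl1 and Cxcl12) also had one on the B arrays.

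Total RNA was measured at 0, 4, 12, 24 and 48 h on 3 arrays per time on each array type, 30 arrays in all. The labels name no strain, age, genotype or treatment, do not say what started the clock, and do not say whether the replicates came from separate cultures. What the p-values measure is thus the spread of these arrays alone, which may be technical. On the B arrays, replicate 1 at 0 h was titled extraocular muscle while its source name was leg muscle, so it was kept under its title, and changes against 0 h on the B arrays are also given without it. The deposited values are linear intensities scaled array by array, so every change is relative to the rest of its array, and levels on A and B arrays are not compared. In bulk RNA, fewer cells of a type and less RNA per cell cannot be told apart.

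Cytokines and chemokines are small secreted proteins that recruit and instruct other cells through surface receptors. Muscle fibres and the satellite and connective tissue cells beside them can secrete several of them, which is why contracting or injured muscle is known as a source of interleukin 6 and of monocyte attractants. Many of these genes share regulation by the transcription factor NF-kB, whose inhibitor IkB-alpha is encoded by Nfkbia, and by AP-1 and the C/EBP family. Ptx3 is a long pentraxin that binds microbes and complement and is built into hyaluronan-rich matrix. Vegfc acts through the receptor encoded by Flt4 and drives the growth of lymphatic vessels.

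The upstream sequences of 4 of these genes are shown because they carry the motifs of those factors in different combinations. They are the 250 bases before the annotated start from RefSeq on GRCm38.p6, read 5′ to 3′ on the gene's strand, with each motif match in capitals. An entry was matched for 7 of the 10 genes. Ccl2, Ccl7 and Cxcl5 are named only.
Ptx3, chr3:66219637-66219886, plus strand: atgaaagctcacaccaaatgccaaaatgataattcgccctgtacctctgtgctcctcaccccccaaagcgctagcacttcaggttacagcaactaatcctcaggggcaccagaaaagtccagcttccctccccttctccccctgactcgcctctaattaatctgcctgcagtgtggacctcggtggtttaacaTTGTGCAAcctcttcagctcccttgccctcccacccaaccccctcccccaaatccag
Vegfc, chr8:54077282-54077531, plus strand: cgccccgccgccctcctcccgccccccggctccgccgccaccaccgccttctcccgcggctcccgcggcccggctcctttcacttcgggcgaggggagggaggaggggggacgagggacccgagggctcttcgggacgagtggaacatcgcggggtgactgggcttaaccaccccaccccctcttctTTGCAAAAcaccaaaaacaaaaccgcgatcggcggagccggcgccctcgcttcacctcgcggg
Il6, chr5:30012864-30013113, plus strand: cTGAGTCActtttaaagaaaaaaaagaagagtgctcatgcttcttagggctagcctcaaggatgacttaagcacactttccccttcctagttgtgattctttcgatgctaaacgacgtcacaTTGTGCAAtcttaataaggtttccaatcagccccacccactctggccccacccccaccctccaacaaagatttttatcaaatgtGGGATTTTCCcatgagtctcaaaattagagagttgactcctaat
Cxcl1, chr5:90890995-90891244, plus strand: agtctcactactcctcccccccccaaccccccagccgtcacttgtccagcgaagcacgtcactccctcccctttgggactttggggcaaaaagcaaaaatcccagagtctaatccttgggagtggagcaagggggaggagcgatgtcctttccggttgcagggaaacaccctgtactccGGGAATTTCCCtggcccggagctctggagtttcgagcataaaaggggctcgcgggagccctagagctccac

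The C/EBP motif TTGCNNAA was found in Ptx3, Vegfc and Il6, on either strand, against 9.56% of 32851 upstream windows of the same length. Ptx3 (positions -57 to -50 from the start) and Il6 (-128 to -121) held the same 8 letters, TTGTGCAA as printed, which match on the minus strand. The match of Vegfc, TTGCAAAA at -63 to -56, was on the plus strand. The NF-kB consensus was found in 4 of 7 entries (Il6, Lif, Cxcl1 and Csf1) against 7.25% of all windows, and the pair of matches in Cxcl1 overlap on opposite strands. The AP-1 motif TGANTCA was found in Il6 and Lif, against 6.75% of windows. None of the 7 entries held TGATGNAA (3.45% of windows), TGACGTCA (1.55%) or TATAAA (12.4%), and Cxcl12 held no motif of those searched. A match describes letters in this window and is not evidence of binding.

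How well each gene was measured set what could be tested. Probe sets were tested with limma where their mean over the 15 arrays reached the 40th percentile of the array type, which was an intensity of 101 for type A and 199.6 for type B. This kept 14 of the 21 probe sets, for 6 genes: Ptx3, Vegfc, Ccl2, Cxcl1, Cxcl12 and Csf1. Il6, Lif, Ccl7 and Cxcl5 had no probe set above the filter, so they are given by their values. Changes are log2 differences of intensity plus 16 (later minus earlier) ± SE, levels are mean ± SD, and n = 3 arrays per time throughout. A difference passed where its p adjusted over all probe sets of the array type was below 0.05. Where arrays of different times are said not to overlap, this describes their values and is no test. Between 24 and 48 h 18.5% of the tested A array probe sets showed such a separation, and the share for other pairs of times is not given.

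The mean of Ptx3 was higher at each later time, most of all at 24 and 48 h. Its A array probe set, 1418666_at, read 72.1, 146 and 116 on the 3 arrays at 0 h, then 149, 149 and 142 at 4 h and 204, 190.1 and 225 at 12 h. It read 523, 534 and 582 at 24 h, and 1554, 971 and 2796 at 48 h. The lowest array of each time from 12 h on lay above the highest of the time before, and only the 0 h and 4 h values overlapped. The 3 arrays at 24 h lay close together (546 ± 31.6), whereas those at 48 h were spread widely around their mean (1774 ± 932).

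Ptx3 was chosen for its difference between 48 h and 0 h, so its changes that use those arrays are a description with no test. They were 0.40 ± 0.27 at 4 h, 0.85 ± 0.27 at 12 h, 2.19 ± 0.27 at 24 h and 3.73 ± 0.27 at 48 h, all against 0 h, and 1.54 ± 0.27 from 24 to 48 h. Of 13577 A array probe sets, 3 had a wider range of time means than the 3.73 of Ptx3, against a median range of 0.38. The times that did not choose it can be tested. From 4 to 24 h, a comparison added after the values were seen, Ptx3 rose 3.46-fold on the scale with 16 added (1.79 ± 0.27, limma adjusted p = 0.00121, range 0.00018 to 0.00702 over 24 other settings and runs without an array).

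From 4 to 12 h the change was 0.45 ± 0.27 (limma adjusted p = 0.567), and from 12 to 24 h it was 1.34 ± 0.27 (limma adjusted p = 0.0851), neither past the threshold. The step from 12 to 24 h did pass without A 48 h replicate 2 (limma adjusted p = 0.0256) or replicate 3 (0.0147), whose spread enters the shared error, and when only the arrays of those times were fitted (0.01). Over all settings its adjusted p ran from 0.01 to 0.366.

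A B array probe set for Ptx3, 1456903_at, gave no such course. It lay below the filter level on 13 of 15 arrays, and its means were 118 ± 129 at 0 h, 141 ± 49.4 at 4 h, 71.9 ± 63.5 at 12 h, 51.4 ± 1.75 at 24 h and 136 ± 74.4 at 48 h. Neighbouring times in the order of its means overlapped throughout. The Ptx3 result therefore rests on 1 probe set of the A arrays, and why the other differs was not tested.

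Vegfc was lower at the later times, with its low level reached by 12 h. On the B arrays its brighter probe set, 1440739_at, read 2388, 2554 and 2723 at 0 h, 1774, 2003 and 1522 at 4 h and 1017, 900.4 and 1028 at 12 h. It stayed low afterwards, at 845, 1011 and 933 at 24 h and 892, 1128 and 1108 at 48 h. The 0 h, 4 h and 12 h values did not overlap one another, while 12, 24 and 48 h did. The A array probe set, 1419417_at, showed the same order from 0 to 24 h, with 182, 209.6 and 239 at 0 h, 138, 161 and 114 at 4 h and 79.9, 63.1 and 102 at 12 h. It read 55.3, 85.4 and 62.6 at 24 h and 57.2, 66.1 and 86.4 at 48 h, so that from 12 h on it was mostly below the filter level. The third probe set, 1439766_x_at on the B arrays, had means of 501 ± 83.4 at 0 h and 482 ± 128 at 4 h and then read 194 ± 62.3, 155 ± 69.0 and 216 ± 8.76 at 12, 24 and 48 h.

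**Figure D1:**
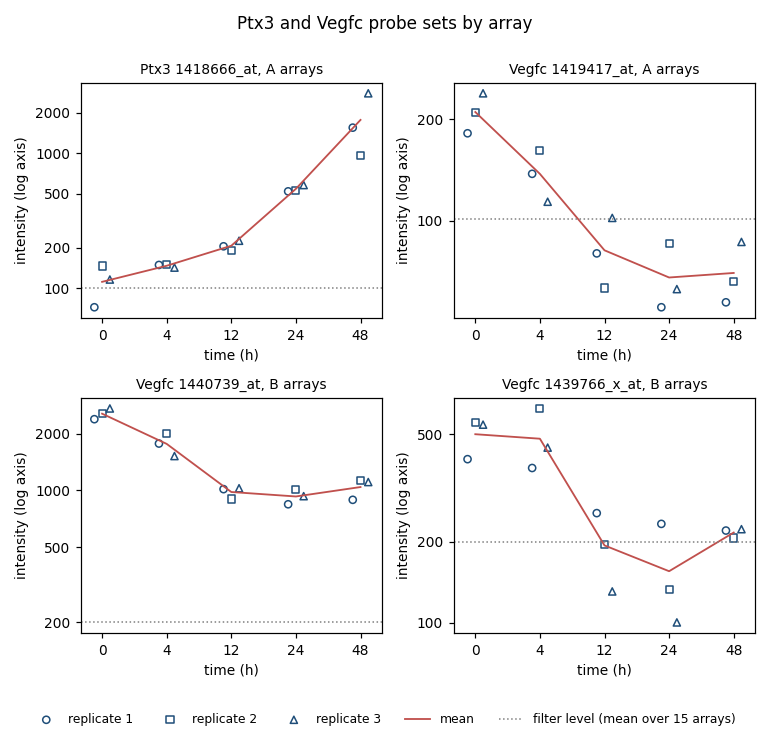
Intensity (log axis) of the Ptx3 probe set of the A arrays and the 3 Vegfc probe sets at each time (h, evenly spaced), with 1 symbol per array, a line through the means of 3 arrays and the filter level dotted. Ptx3 goes from a mean of 111 at 0 h to 1774 at 48 h, and the Vegfc probe sets reach their low level by 12 h.

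Vegfc was chosen for its difference between 12 h and 0 h, and its changes that use those arrays are likewise given as a description. Against 0 h the 1440739_at probe set changed by -0.54 ± 0.14 at 4 h, -1.37 ± 0.14 at 12 h, -1.44 ± 0.14 at 24 h and -1.29 ± 0.14 at 48 h. The corresponding values of 1419417_at were -0.56, -1.22, -1.44 and -1.40, each ± 0.24. Those of 1439766_x_at were -1.33, -1.65 and -1.14 at 12, 24 and 48 h, each ± 0.34. When B 0 h replicate 1 (source name leg muscle) was left out, the changes of 1440739_at were -0.58, -1.41, -1.49 and -1.33, each ± 0.17, at 4, 12, 24 and 48 h. Those of 1439766_x_at were then -1.47, -1.79 and -1.28, each ± 0.38, at 12, 24 and 48 h.

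The comparison of 24 h with 4 h uses arrays that did not choose Vegfc but was added after the values were seen. There Vegfc fell 1.88-fold in 1440739_at (-0.91 ± 0.14, limma adjusted p = 0.0115). In 1419417_at the change was -0.88 ± 0.24 (limma adjusted p = 0.0431), given as a description. Without the high 0 h arrays, which helped to choose Vegfc, the mean of 1419417_at lay below the filter level, and all of its 24 h arrays did. In 1439766_x_at the change was -1.58 ± 0.34 and just missed the threshold (limma adjusted p = 0.0534, 0.0385 to 0.22 over its other settings). It passed without B 12 h replicate 3 (limma adjusted p = 0.0385) or B 24 h replicate 1 (0.0451) and with a pseudocount of 64 (0.0462). The call of 1440739_at was lost without B 4 h replicate 1 (limma adjusted p = 0.0531), B 4 h replicate 2 (0.0558) or B 24 h replicate 1 (0.052), and when only the arrays of those times were fitted (0.1), and ranged from 0.00773 to 0.1 over all settings.

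The call of 1419417_at from 4 to 24 h was the less stable and was lost in 15 of 23 settings. The arrays whose removal ended it were A 0 h replicates 1 and 2 (limma adjusted p = 0.0545 and 0.0513), A 4 h replicates 1, 2 and 3 (0.12, 0.158 and 0.0587), A 12 h replicate 1 (0.054), A 24 h replicates 1, 2 and 3 (0.169, 0.0551 and 0.0857) and A 48 h replicate 1 (0.051). It was also lost with quantile normalization (limma adjusted p = 0.0867), median scaling (0.0652), no filter (0.0773), only the times compared in the fit (0.0658) and the replicate number as a block (0.0505). From 24 to 48 h no Vegfc probe set passed: the changes were 0.16 ± 0.14 in 1440739_at (limma adjusted p = 0.937) and 0.51 ± 0.34 in 1439766_x_at (0.887), and the mean of 1419417_at was 67.8 ± 15.7 and 69.9 ± 15.

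Ccl2 encodes the chief monocyte attractant, which acts through the receptor encoded by Ccr2. Its A array probe set, 1420380_at, read 87.3, 177 and 95.4 at 0 h, 46.4, 96.4 and 100.4 at 4 h and 45.3, 83.7 and 72.5 at 12 h. It then read 124, 109 and 142 at 24 h and 150.0, 200.2 and 298 at 48 h. The means thus lay lowest at 12 h (67.2 ± 19.7) and highest at 48 h (216 ± 75.2), with the 12 h arrays below all arrays at 24 h and the 24 h arrays below all at 48 h. The 0 h values overlapped those at 4, 24 and 48 h but not those at 12 h.

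Ccl2 passed the test for any change over time (limma F-test, adjusted p = 0.0356), but none of its 8 comparisons of single times did. The change was -0.68 ± 0.31 at 12 h (limma adjusted p = 0.378) and 0.78 ± 0.31 at 48 h (0.169), both against 0 h, 0.79 ± 0.31 from 12 to 24 h (0.597) and 0.67 ± 0.31 from 24 to 48 h (0.428). The F-test call was lost with no filter (0.0744) and without A 12 h replicate 1 (0.0769), A 24 h replicate 1 (0.0611) or 2 (0.0544), or A 48 h replicate 2 (0.0884) or 3 (0.131), in a range of 0.0157 to 0.131. Its level lay near the filter, with 8 of 15 arrays below it, and without the high 48 h arrays its mean lay below the filter level. The F-test call of Ccl2 is thus given as a description.

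Lif and Il6 belong to the interleukin 6 family, which signals through the shared receptor gp130 and STAT3. Lif stimulates myoblast proliferation, and Il6 is released by working muscle. The Lif probe set 1421207_at was below the filter level on all 15 arrays. It read 56.4, 59.9 and 81.4 at 0 h, 31.9, 25.0 and 24.7 at 4 h and 42.8, 47.9 and 16.3 at 12 h, then 74.2, 59.0 and 67.5 at 24 h and 85.1, 84.0 and 90.8 at 48 h. The 48 h arrays lay above all others, and those at 4 and 12 h lay below all at 0, 24 and 48 h. With no filter, an alternative setting, its F-test adjusted p in limma was 0.034. Both Lif 1421207_at and Ccl2 thus had their lowest mean at 4 or 12 h and their highest at 48 h. This was not particular to them. It also held for Cxcl12 1417574_at, Csf1 1425154_a_at, Ccl7 1421228_at and the Cxcl1 probe sets 1419209_at and 1457644_s_at.

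The other Lif probe set, 1450160_at, read between 9.0 and 65.0 with overlap between all neighbouring times in the order of its means, and did not follow that course. For Il6, 1450297_at had a mean of 22.1 ± 14.4 at 0 h, 24.5 ± 5.63 at 4 h, 41.9 ± 18.1 at 12 h, 36.0 ± 2.54 at 24 h and 60.7 ± 11 at 48 h. Its 48 h arrays (64.2, 69.6 and 48.4) lay above all arrays at 0, 4 and 24 h but overlapped those at 12 h. With no filter the comparison of 48 h with 0 h did not pass (limma adjusted p = 0.066). All of these intensities lie under the filter level, so no fold is given.

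Ccl7, another monocyte attractant, and Cxcl5, a neutrophil attractant, were listed at the bottom of the A array scale. Ccl7 (1421228_at) ranged from 2.2 to 80.3 and its replicates differed as widely as its times, with 24.4, 9.7 and 80.3 at 48 h. Cxcl5 (1419728_at) ranged from 1.3 to 27.9, at the 7.66th percentile of A array probe sets by mean. Its means were 17.4 ± 2.41 at 0 h, 3.77 ± 2.40 at 24 h and 21.1 ± 8.55 at 48 h and are given without a test.

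**Figure D2:**
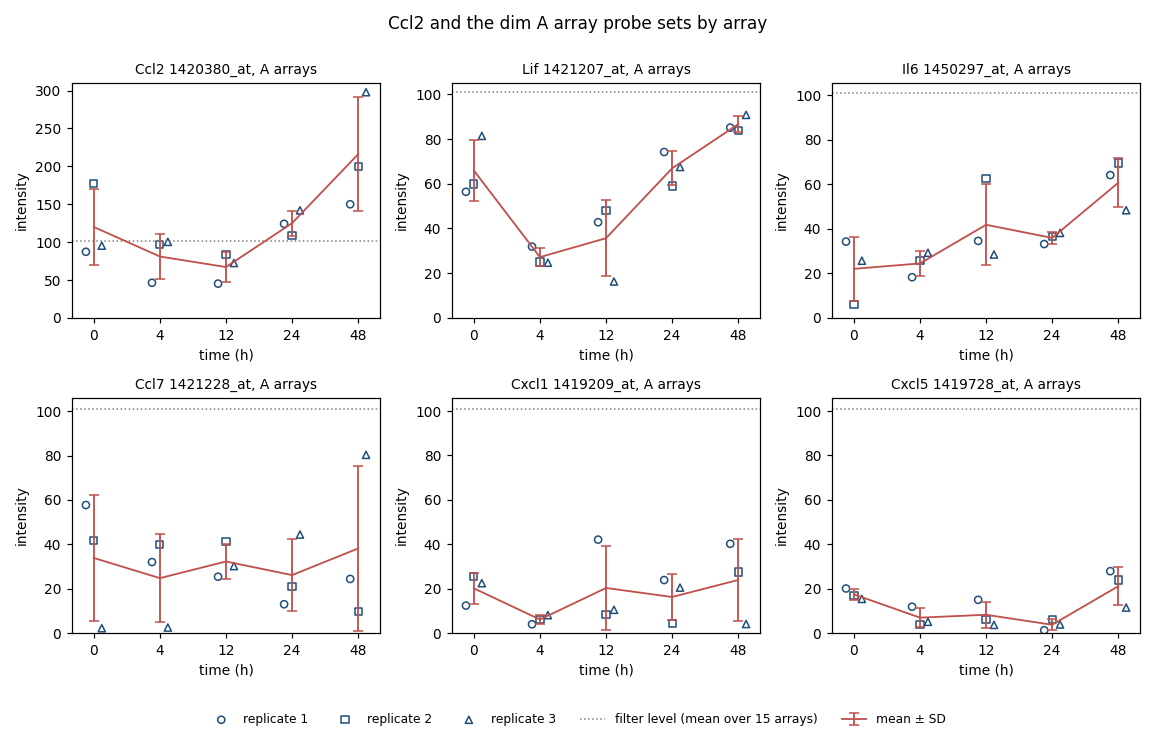
Intensity of Ccl2 and of 5 A array probe sets below the filter at each time (h), with 1 symbol per array, mean ± SD of 3 arrays and the filter level dotted. Ccl2 has its lowest mean at 12 h and its highest, 216, at 48 h, and Lif at 48 h reads 84.0 to 90.8 against 24.7 to 31.9 at 4 h.

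Cxcl1, a neutrophil attractant acting on Cxcr2, was reported differently by the array types. Its A array probe set, 1419209_at, read 4.0 to 42.1, at the 12.0th percentile of its type. Its B array probe sets were well above the filter: 1441855_x_at read 2194 to 3940.3 (96.6th percentile) and 1457644_s_at 316 to 783 (72.7th percentile). Probe sets whose names end in _x_at or _s_at can bind transcripts of other genes too, and whether the B array signal is that of Cxcl1 was not tested.

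Neither B array probe set of Cxcl1 passed a test. The mean of 1441855_x_at was 2518 ± 255 at 0 h, 2633 ± 399.5 at 4 h, 2957 ± 353 at 12 h, 3129 ± 764 at 24 h and 3172 ± 476 at 48 h, and each neighbouring pair overlapped. At 48 h against 0 h the difference was 0.33 ± 0.18 (limma adjusted p = 0.584), and 0.39 ± 0.20 without B 0 h replicate 1 (0.578). In 1457644_s_at it was 0.34 ± 0.33 (limma adjusted p = 0.823), and 0.34 ± 0.38 without that array (0.85), with means of 559.8 ± 213 and 681 ± 87.8.

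Cxcl12 and Csf1 were the well-measured ligands of the group on the A arrays, and neither passed a test. Cxcl12 binds Cxcr4 and guides muscle precursor and blood-forming cells. Its probe set 1448823_at read 870.3, 944 and 1210.1 at 0 h and 1421, 1101 and 1152 at 48 h, which overlap, with a change of 0.28 ± 0.19 (limma adjusted p = 0.433). The other A array probe set, 1417574_at, had nearly identical arrays at 0 h (704, 701 and 697) and wide spreads at 4 h (571 ± 208) and 12 h (531 ± 216). Its change was -0.46 ± 0.25 at 12 h against 0 h (limma adjusted p = 0.45) and 0.52 ± 0.25 from 12 to 24 h (0.709). On the B arrays, 1439084_at read 563, 512 and 121 at 48 h, so that a single array lay near the 24 h values (160.0, 162 and 113) and the others far above (1.12 ± 0.53, limma adjusted p = 0.83). Its change at 48 h against 0 h was 0.58 ± 0.53 (limma adjusted p = 0.805), and 0.96 ± 0.58 without B 0 h replicate 1 (0.648).

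Csf1 encodes macrophage colony-stimulating factor, the growth factor of monocytes and macrophages, and had 4 probe sets on the A arrays. In 1425154_a_at the arrays read 621, 756 and 802 at 0 h, 646, 552 and 759 at 24 h, and 854, 939 and 929.5 at 48 h. In 1425155_x_at they read 369.8, 403 and 562 at 0 h, 364, 342 and 334 at 24 h, and 584, 509 and 633 at 48 h. In both, and in 1448914_a_at, every 48 h array lay above every 24 h array, a separation that 18.5% of all A array probe sets showed for that pair of times. The 24 to 48 h changes were 0.48 ± 0.17, 0.70 ± 0.18 and 0.41 ± 0.18 in these 3 probe sets and 0.29 ± 0.19 in the brightest, 1460220_a_at. None passed (limma adjusted p = 0.269, 0.109, 0.392 and 0.611), although 1425155_x_at did (0.046) when only the arrays of those times were fitted, in a range of 0.046 to 0.294.

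**Figure D3:**
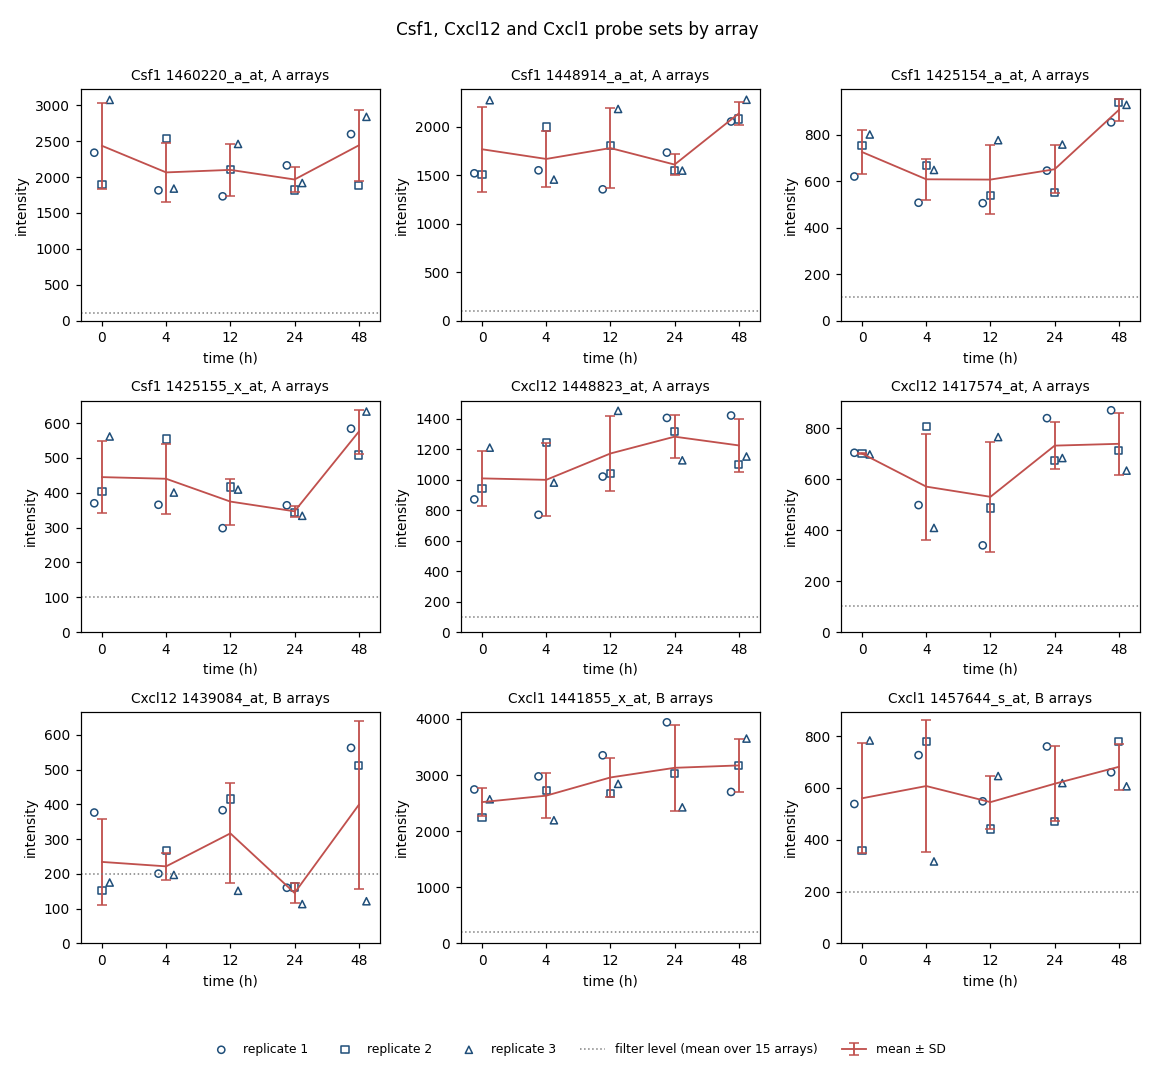
Intensity of the Csf1, Cxcl12 and Cxcl1 probe sets above the filter at each time (h), with 1 symbol per array, mean ± SD of 3 arrays and the filter level dotted. Csf1 1425155_x_at has means of 347 at 24 h and 575 at 48 h, Cxcl12 1439084_at is spread from 121 to 563 at 48 h, and no probe set shown passed a test.

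Counted together, few of the 14 tested probe sets passed, and those that did were nearly all from the genes chosen for their change. None passed at 4 h against 0 h, where limma called 0.0295% of all A array and 0.0% of all B array probe sets (2 of the 14 had an unadjusted p under 0.05, against 6.02% and 5.17% of all). At 12 h 2 were lower, both of Vegfc, beside 0.118% of A array and 0.0148% of B array probe sets called lower. At 24 h 1 was higher, Ptx3, and 3 were lower, all of Vegfc. Limma called 5.56% and 0.97% of all probe sets there, 3.23% and 0.696% as higher and 2.33% and 0.274% as lower. At 48 h 1 was higher, Ptx3, and 2 were lower, both of Vegfc, beside 6.7% and 0.933% called in all, 4.2% and 0.733% as higher and 2.5% and 0.2% as lower. Since these contrasts chose Ptx3 and Vegfc, nothing is read from those counts.

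Between neighbouring times, none passed from 4 to 12 h in limma (0.295% and 0.0074% called), with 3 of the 14 at an unadjusted p under 0.05 (11.5% and 7.62% of all). None did from 12 to 24 h in limma (0.0884% and 0.0%), with 2 at an unadjusted p under 0.05 (7.09% and 4.19%). From 24 to 48 h 1 did, Ptx3, beside 0.545% and 0.0666% called higher, and since the 48 h arrays chose Ptx3 nothing is read from it. From 4 to 24 h 3 passed, Ptx3 as higher (2.38% and 0.281% of all) and 2 of Vegfc as lower (2.07% and 0.178%). That comparison was added after the values were seen. In the F-test 5 passed, beside 7.59% and 1.02% of all. Of these, 4 are Ptx3 and the Vegfc probe sets, whose choice used these arrays. The other is Ccl2, whose high 48 h arrays carried it past the filter and for which the choosing values are not recorded. Nothing is read from these calls. No other gene of the group was called in any comparison. As a description, the median change of the 9 A array probe sets at 48 h against 0 h was 0.30 beside 0.02 over all A array probe sets tested, and that of the 5 on the B arrays was 0.33 beside -0.02. The 9 came from 5 genes and the 5 from 3, with Ptx3 or Vegfc among them. Neither value is thus a median over genes.

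**Figure D4:**
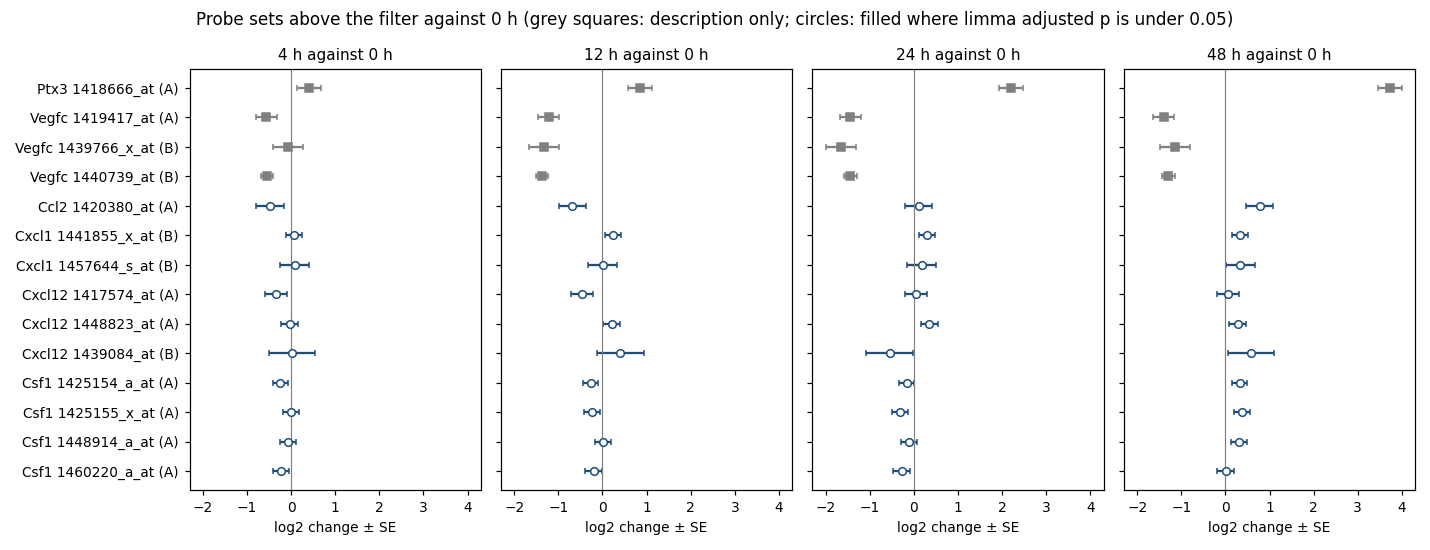
Log2 change against 0 h ± SE of the 14 probe sets above the filter at 4, 12, 24 and 48 h, with grey squares for Ptx3 and Vegfc, whose values are a description, and circles for the other genes, filled where limma's adjusted p is under 0.05. Ptx3 reaches 3.73 at 48 h, the Vegfc probe sets lie between -1.65 and -1.14 from 12 h on, and no circle is filled.

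Lists of related genes and of cell markers follow, all chosen with earlier results of these data known. A gene counts where any of its tested probe sets passed, while the shares beside it are per probe set. Nothing is therefore read from a count of genes against such a share. The receptors of these ligands gave 1 change against 0 h. Of 12 tested receptor genes, Cxcr4, the receptor of Cxcl12, fell, beside 2.33% of A array probe sets called lower at 24 h and 2.5% at 48 h. Its mean was 807 ± 134 at 0 h, 983 ± 89.7 at 4 h, 618 ± 78.2 at 12 h, 299.9 ± 85.3 at 24 h and 202 ± 77.0 at 48 h. The change was -1.40 ± 0.24 at 24 h (limma adjusted p = 0.00241) and -1.98 ± 0.24 at 48 h (6.82e-05), and both calls held in every setting run. The ligand Cxcl12 itself had no call. The median change of the receptor list at 48 h was -0.11, beside 0.02 over all A array probe sets tested. From 4 to 24 h a second receptor gene fell beside Cxcr4 (-1.69 ± 0.24, limma adjusted p = 0.0007): Nrp2, a co-receptor of Vegfc, went from 1678 ± 187 to 964.8 ± 96.9 on the B arrays (-0.79 ± 0.16, limma adjusted p = 0.046). The Nrp2 call was lost in 17 of 24 settings, in a range of 0.0288 to 0.183, and among these were the runs without any 1 B array other than B 0 h replicate 3, B 12 h replicate 3 and B 24 h replicate 3. From 4 to 24 h limma called 2.07% of all A array and 0.178% of all B array probe sets lower. That comparison was added after the values were seen. Flt4, the receptor of Vegfc, and Cxcr2 were below the filter.

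Among 8 other tested chemokines, of 29 in the list, 1 changed against 0 h, beside 5.56% of A array and 0.97% of B array probe sets called at 24 h and 6.7% and 0.933% at 48 h. Cx3cl1, a membrane-anchored chemokine whose receptor is found on monocytes, fell from 1519 ± 199 at 0 h to 823 ± 43.7 at 24 h (-0.86 ± 0.15, limma adjusted p = 0.00226) and 599.7 ± 31.8 at 48 h (-1.31 ± 0.15, 3.22e-05), in every setting run. The median change of that list at 48 h was 0.08. Of 10 other tested cytokines and colony-stimulating factors, of 38 listed, none passed in limma at any time, with 1 at an unadjusted p under 0.05 at 48 h against 0 h (19.7% of all A array and 10.3% of all B array probe sets). Most of the rest were below the filter, among them Tnf, Il1a, Csf2 and Csf3, and are thus not shown to be absent.

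In the interleukin 6 family pathway, 2 of 14 tested genes rose at 48 h against 0 h and none fell, beside 4.2% of A array and 0.733% of B array probe sets called higher. Osmr, the receptor subunit for oncostatin M, went from 113 ± 12.1 to 241 ± 98.4 in 1418674_at (0.93 ± 0.25, limma adjusted p = 0.0351) and changed by 0.94 ± 0.24 in 1418675_at (0.0269). Socs3, a feedback inhibitor induced by STAT3, went from 165 ± 50 to 297 ± 36.1 (0.82 ± 0.22, limma adjusted p = 0.033). The median change of the list was 0.01.

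These interleukin 6 family calls were close to the threshold. Osmr 1418675_at had means of 80.5 at 0 h and 164 at 48 h, and without the 48 h arrays its mean lay below the filter level, so its call is a description. That of Socs3 was lost without A 0 h replicate 1 (limma adjusted p = 0.0729) or 2 (0.138) and without A 48 h replicate 1 (0.0527), 2 (0.105) or 3 (0.0977), in a range of 0.017 to 0.138. Osmr 1418674_at lost its call without A 0 h replicate 1 (0.129), 2 (0.0703) or 3 (0.057) and without A 48 h replicate 1 (0.0536) or 3 (0.173), in a range of 0.0151 to 0.173. Osmr 1418675_at lost it without A 0 h replicate 2 (0.107) and without A 48 h replicate 1 (0.0906), 2 (0.0683) or 3 (0.0665), in a range of 0.0138 to 0.107. Other settings also ended these calls. That of Socs3 was lost with quantile normalization (limma adjusted p = 0.0675), median scaling (0.0792), no filter (0.0657) or only the times compared (0.0595). Under the same settings Osmr 1418674_at had values of 0.0514, 0.0532, 0.0695 and 0.0621, and Osmr 1418675_at lost its call with no filter (0.0509) or only the times compared (0.0656). The comparison of 24 h with 4 h was added after the values were seen. From 4 to 24 h the phosphatase gene Ptpn11 rose from 2121 ± 94.9 to 2923 ± 169.9 (0.46 ± 0.12, limma adjusted p = 0.0309). That call was lost without any A 4 h replicate (0.113, 0.055 and 0.0939), any A 24 h replicate (0.0759, 0.084 and 0.082) or the variance trend (0.0564), in a range of 0.0234 to 0.113.

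NF-kB, the shared regulator of many of these ligands, induces its own inhibitors. At 24 h against 0 h 3 of 20 tested genes of its list fell and none rose. Limma called 2.33% of A array and 0.274% of B array probe sets lower there. These shares are per probe set, while a gene counts where any of its probe sets passed, so the measures are unlike. Nfkb2, the p100 subunit, was at 602 ± 51.4 at 0 h, 255 ± 8.81 at 12 h, 222 ± 20.4 at 24 h and 306 ± 5.88 at 48 h (-1.37 ± 0.13 at 24 h). Nfkbia, in its brightest A array probe set, 1420088_at, went from 5232 ± 248 at 0 h to 2852 ± 273 at 24 h (-0.88 ± 0.11) and 2960.3 ± 201 at 48 h (-0.82 ± 0.11). Its other probe sets fell by 1.05 to 1.15 on the log2 scale at 24 h. Nfkbie, another inhibitor, fell at 24 h from 533 ± 192 to 100.6 ± 43.0 on the B arrays (-2.25 ± 0.41, limma adjusted p = 0.0149). It lost that call without B 0 h replicate 3 (limma adjusted p = 0.0681), B 24 h replicate 1 (0.0604) or B 24 h replicate 2 (0.0579) and with only the times compared (0.0921), and Nfkbia 1438157_s_at lost its own without B 24 h replicate 2 (0.0542). Without B 0 h replicate 1 the change of Nfkbie was -2.36 ± 0.47 (limma adjusted p = 0.049) and that of Nfkbia 1438157_s_at -1.13 ± 0.22 (0.0434).

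At 48 h Nfkb2 and Nfkbia were still lower than at 0 h, and Tnfaip2, a gene induced by tumour necrosis factor, was the 1 gene of that list that rose, from 659 ± 75.1 to 1229 ± 103 (0.89 ± 0.15 in 1438855_x_at, limma adjusted p = 0.00126). At 48 h limma called 4.2% of all A array and 0.733% of all B array probe sets higher, and 2.5% and 0.2% lower. The median change of the list was -0.23 at 24 h and -0.08 at 48 h.

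From 4 to 24 h 5 genes of the list passed as lower, beside 2.07% and 0.178% of all probe sets: Nfkb2, Nfkbia, Nfkbie, Birc3 and Ikbkg. This comparison was added after the values were seen, and the list was chosen with earlier results known. Nothing is thus read from the count. Birc3, an inhibitor of cell death induced by NF-kB, went from 178.5 ± 7.37 to 61.2 ± 21.2 (-1.37 ± 0.36, limma adjusted p = 0.0409) and lost its call in 9 of 23 settings. These were quantile normalization (0.0582), no filter (0.0795) and the runs without A 0 h replicate 1 (0.053), any A 4 h replicate (0.101, 0.103 and 0.109), A 12 h replicate 1 (0.0501) or A 24 h replicate 1 (0.176) or 2 (0.0942). Ikbkg, the regulatory subunit of the kinase that acts on the inhibitors, went from 561 ± 144 to 331 ± 32.1 (-0.70 ± 0.19, limma adjusted p = 0.0436) and lost its call in 13 of 24 settings, in a range of 0.0125 to 0.184. The arrays whose removal ended it were A 0 h replicate 1, A 4 h replicates 1 and 3, A 12 h replicate 1, all 3 of A 24 h and A 48 h replicate 1. The Nfkbie call from 4 to 24 h (-2.14 ± 0.41, limma adjusted p = 0.0322) was lost in 8 of 23 settings, among them the runs without B 4 h replicate 1 (0.0747) or 2 (0.156) or B 24 h replicate 1 (0.124) or 2 (0.107).

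Of 16 tested regulators that act on cytokine promoters or transcripts, 7 rose and 1 fell at 48 h against 0 h. Limma called 4.2% of all A array and 0.733% of all B array probe sets higher there, and 2.5% and 0.2% lower. The list was chosen with earlier results of these data known, so nothing is read from the count. The C/EBP factors, which bind the motif shown in the Ptx3, Vegfc and Il6 sequences, were among them: Cebpb went from 879.6 ± 27.1 to 2047 ± 252 (1.2 ± 0.14, limma adjusted p = 2.99e-05), Cebpg from 494 ± 39.8 to 1056 ± 191 (1.06 ± 0.14) and Cebpd from 104 ± 40.2 to 262 ± 109 (1.19 ± 0.28). Ddit3, the stress-induced C/EBP relative CHOP, went from 164 ± 43.4 to 1545 ± 207 (3.14 ± 0.22) and Atf3 from 27.7 ± 26.0 to 579 ± 168 (3.89 ± 0.43). Atf3, counted among the 7, is given as a description, since without its high 48 h arrays its mean lay below the filter level. Its change at 48 h ran from 2.81 to 4.71 over 23 other settings. Atf4, which drives the response to amino acid shortage, rose by 0.71 ± 0.14 in 1448135_at, and Tsc22d3, a glucocorticoid-induced gene, by 1.17 ± 0.15.

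Zfp36l2, an RNA-binding protein that speeds the decay of AU-rich transcripts, was the gene that fell, from 5803 ± 746 to 3591 ± 608 (-0.69 ± 0.15). At 24 h 4 of these regulators had risen (Atf3, Ddit3, Tsc22d3 and Zfp36l1) and Zfp36l2 had fallen. Limma called 3.23% of all A array and 0.696% of all B array probe sets higher there, and 2.33% and 0.274% lower. Atf3 is again a description, since its high 48 h arrays carried it past the filter. The 24 h call of Atf3 was lost without A 0 h replicate 1 (limma adjusted p = 0.0877) or 2 (0.0979) or A 24 h replicate 1 (0.104) or 3 (0.071) and with no filter (0.0515), in a range of 0.00751 to 0.104. That of Ddit3 was lost without A 0 h replicate 1 (0.0655) or 3 (0.153), any A 24 h replicate (0.101, 0.0509 and 0.126) or A 48 h replicate 1 (0.0525), in a range of 0.0223 to 0.153. It was also lost with no filter (limma adjusted p = 0.0745), with no variance trend (0.0527), with only the times compared in the fit (0.0711) and with the replicate number as a block (0.0504). Zfp36l1 was close to the threshold (limma adjusted p = 0.0472) and lost its call in 17 of 24 settings, among them those without every A 0 h (0.152, 0.105 and 0.0622), A 4 h (0.0512, 0.0516 and 0.0526) and A 24 h replicate (0.159, 0.117 and 0.076), A 12 h replicate 2 (0.0534) or A 48 h replicate 1 (0.0636).

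The Cebpd call at 48 h was lost without A 0 h replicate 1 (limma adjusted p = 0.0984), A 48 h replicate 1 (0.0506) or A 48 h replicate 3 (0.0953), in a range of 0.00698 to 0.0984. The median change of the list was 0.36 at 48 h. The series holds no measurement of binding, so whether these factors act on the genes shown was not tested.

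Of 8 other tested genes for vascular growth factors, 2 rose at 48 h (4.2% of A array probe sets called higher) and 1 fell at 24 h (2.33% called lower), both against 0 h. Vegfa, the growth factor of blood vessels, rose at 48 h from 305 ± 31.6 to 524 ± 83.5 in 1420909_at (0.74 ± 0.14, limma adjusted p = 0.00416), and Pdgfc from 1284 ± 60.2 to 1870.0 ± 118 in 1449351_s_at (0.54 ± 0.12, 0.0103). Angptl4, a secreted inhibitor of lipoprotein lipase, fell at 24 h from 921 ± 112 to 411 ± 80.5 (-1.15 ± 0.22, limma adjusted p = 0.00578) and was back at 912 ± 411 at 48 h. The difference between Vegfa and Vegfc was not tested.

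Of the pentraxins and matrix partners of Ptx3, 5 of 19 listed genes could be tested. Vcan, a hyaluronan-binding proteoglycan, fell at 24 h from 568 ± 39.9 to 355 ± 21.0 (-0.65 ± 0.16, limma adjusted p = 0.0216, 0.0114 to 0.0729 over its settings) and was at 547 ± 90.2 at 48 h. Its call was lost without A 0 h replicate 2 (0.0595) or 3 (0.0729) or A 24 h replicate 1 (0.0619), 2 (0.0601) or 3 (0.0658). None of these 5 genes passed at 48 h in limma, with 2 at an unadjusted p under 0.05, beside 6.7% of A array probe sets called and 19.7% at an unadjusted p under 0.05.

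Genes whose pattern over the 15 arrays was most like that of a gene in the group were found by the Pearson correlation of log2 intensity, given as a description since the arrays of a time share it. For Ptx3 the 3 nearest probe sets all belonged to Ndrg1, a stress and hypoxia responsive gene (r = 0.955, 0.954 and 0.953). The next genes were Trib3 (0.945), a target of Atf4 and Ddit3 that went from 99.5 at 0 h to 1880.3 at 48 h, and the serine synthesis enzyme Psph (0.937). For Vegfc they were Rasa1 (0.918), Cstb (0.912) and Zwint (0.906) on the A arrays, and Dynap (0.914), Nefl (0.869) and Nfkbia (0.853) on the B arrays.

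For Ccl2 the nearest were Trim47 (0.887), Vcam1 (0.88), an adhesion molecule for leukocytes, and Dph5 (0.852). Axl (0.905), Gphn (0.862) and Haus6 (0.832) were nearest to Csf1, and Gng11 (0.865), Casq1 (0.847) and Col19a1 (0.845) to Cxcl12 on the A arrays. Probe sets of the same gene were not always the most alike: the other Csf1 probe sets correlated with 1460220_a_at at 0.54 to 0.813, and both A array probe sets of Cxcl12 with each other at 0.583. For Cxcl1 on the B arrays the values were lower (A430046D13Rik 0.80, Pappa2 0.79, Gas2 0.78), and its own second probe set stood at 0.526.

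The cells that could supply or lose these transcripts were followed by marker genes on the A arrays. All 8 muscle markers were above the filter, and their summed intensity was 45887 to 59861 at 0 h, 49081 to 64956 at 24 h and 47520 to 55920 at 48 h. Of these 8, 3 passed against 0 h, beside 5.56% of all A array probe sets called at 24 h and 6.7% at 48 h (0.97% and 0.933% on the B arrays). Tnnt3, a troponin of fast fibres, rose from 3103 ± 145 to 6525 ± 1775 at 24 h (1.03 ± 0.24, limma adjusted p = 0.0177) and 5720.3 ± 881 at 48 h (0.87 ± 0.24, 0.0383). Myh3, the embryonic myosin, rose from 4996 ± 59.0 to 8675 ± 1780 at 24 h (0.77 ± 0.18, limma adjusted p = 0.0179). Myod1, a regulator of the muscle lineage, fell from 7444 ± 1899 to 4413 ± 647.5 at 48 h (-0.73 ± 0.18, limma adjusted p = 0.0232). The part of these changes in those of Ptx3 and Vegfc was not tested.

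Each of these muscle calls was lost without single arrays. That of Tnnt3 at 24 h was lost without A 0 h replicate 1 (limma adjusted p = 0.0575) or 3 (0.0523) or A 24 h replicate 1 (0.095) or 2 (0.087). At 48 h it was lost without any A 0 h replicate (0.11, 0.0715 and 0.0919), A 48 h replicate 1 (0.138) or 2 (0.112), and with median scaling (0.0889), no filter (0.0717) or no variance trend (0.0673). The Myh3 call was lost without A 0 h replicate 1 (0.0599) or A 24 h replicate 1 (0.0989) or 2 (0.0828), and that of Myod1 without A 0 h replicate 1 (0.12) or 2 (0.0941) or A 48 h replicate 1 (0.0566) or 3 (0.108).

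Of 14 leukocyte markers 4 were above the filter: Csf1r, the receptor of Csf1, at 96.7 to 275.4, Adgre1 at 57.7 to 215.5, Cd14 at 153.8 to 275.1 and Laptm5 at 80.9 to 176.7. None of them passed against 0 h in limma. At 48 h 1 had an unadjusted p under 0.05, beside 19.7% of all A array and 10.3% of all B array probe sets. This was Laptm5 on the B arrays (184 ± 195.5 at 0 h and 881 ± 358.5 at 48 h, 2.51 ± 0.67, limma adjusted p = 0.112). Its A array probe set went the other way, from 132 ± 37.8 to 101 ± 20.6 (-0.32 ± 0.24, limma adjusted p = 0.5). The defining markers Ptprc (1.7 to 66.0), Itgam (1.4 to 31.5) and C1qa (4.7 to 14.4) stayed below the filter on all A arrays. The leukocyte sum was 849 to 1178 at 0 h and 743 to 1165 at 48 h. Of 9 endothelial markers 2 were above the filter, Kdr (86.2 to 224.2) and the lymphatic marker Prox1 (46.5 to 181.8), and the sum was 398 to 738 at 0 h and 544 to 641 at 48 h. Prox1 had means of 107 ± 56.4 at 0 h and 128 ± 23.5 at 12 h (0.33 ± 0.30, limma adjusted p = 0.694). Lyve1, another lymphatic marker, read 14.2 to 65.5 and Tie1 1.5 to 2.5 on all A arrays.

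The summed fibroblast markers went up with time, from 2440.0 to 2945 at 0 h to 3840.0 to 4227 at 48 h, and this was nearly all Col3a1, the 1 of 7 whose brightest probe set was above the filter, from 2449 to 3644. Its change was 0.57 ± 0.12 at 48 h (limma adjusted p = 0.00732), a call that median scaling ended (0.0588). Its 24 h call (0.52 ± 0.12, limma adjusted p = 0.0153) was lost with median scaling (0.0504) and without A 0 h replicate 1 (0.0811) or A 24 h replicate 2 (0.0588) or 3 (0.054). Below the filter, the mean of Col1a1 went from 34.6 at 0 h to 169.8 at 48 h, that of Lum from 51.9 to 89.7 and that of Fap from 33.8 to 38.1. The mean of Pdgfra went from 82.3 to 58.9, that of Thy1 from 72.2 to 62.7 and that of Dcn from 12.7 to 11.2. Dcn was at 3.9 to 95.6 and Pdgfra at 9.4 to 132 on the A arrays. Both could be tested on the B arrays, where neither passed. Dcn read 360 ± 54.9 at 0 h, 163 ± 119 at 12 h and 321 ± 57.1 at 48 h (-0.16 ± 0.52 at 48 h, limma adjusted p = 0.963), and Pdgfra 254 ± 171 at 0 h and 198 ± 123 at 48 h (-0.21 ± 0.84, 0.97). The median change of the 3 tested fibroblast genes was -0.78 at 12 h and -0.16 at 48 h. The Schwann cell sum was 174 to 227 at 0 h and 205 to 264 at 48 h, and the adipocyte sum was 40 to 104 and 17 to 131. The fibroblast sum thus moved in the direction of Ptx3, mostly through Col3a1, and its part in that result was not tested.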

How the data were processed

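RNA of mouse extraocular muscle cultures was hybridised to Affymetrix arrays of types A and B. A standard Affymetrix protocol is named, per the labels. Software and detection calls are not stated in the sources used. The deposited intensity values, 1 per probe set on a linear scale, were used as deposited. Their mean without the lowest and highest 2% was 500.2 for each A and 500.1 for each B array. Array number limits precision.

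The log2 of intensity plus 16 was fitted with limma 3.58.1 in R 4.3.3 (1 mean per time, 15 arrays of a type, intensity trend, 10 residual degrees of freedom) over 13577 A and 13506 B probe sets, with Benjamini-Hochberg adjustment within each comparison. Symbols came from the platform annotation. On simulated arrays with 200 changed probe sets (48 h against 0 h), 77% of log2 changes of 1 and 98% of 2 were recovered for type A, 50% and 82% for type B, with 4.89% and 5.04% false calls. The labels do not pair the samples by replicate number, so no block was used in the main fit (see the closing section).

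The 10 genes and the 14 lists (221 genes) were chosen with earlier results of these data known. Values at 48 h against 0 h chose Ptx3 and at 12 h against 0 h Vegfc, and no p is given for them in comparisons that share those arrays. The comparison of 24 h with 4 h was added after the values were seen. From each list up to 4 genes with the largest passing change against 0 h were named, and all where 5 or fewer passed. Tsc22d3, Cebpg, Atf4, Zfp36l2, Zfp36l1 and the genes named from 4 to 24 h alone were chosen after their values were seen. A gene counts as changed where any of its tested probe sets passed. Likeness used the brightest tested probe set of a gene. The alternatives were quantile and median scaling, pseudocounts of 1 and 64, no filter and one at the 60th percentile, no trend, only the times compared, a replicate block and each array left out. Motifs were searched in RefSeq upstream sequence (GRCm38.p6) on both strands. Python 3.11.15 and matplotlib 3.10.9 were used.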

Additional observations from a re-analysis of the deposited data

How the results depend on the processing

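The counts of probe sets of these genes past the threshold kept within 1.5 times of their value under most alternatives. At 12 h against 0 h the count of 2 became 1 with median scaling, no filter, a filter at the 60th percentile or only the times compared, and ran from 1 to 2 when single arrays were left out. The stricter filter, which leaves fewer probe sets of these genes to test, gave 2 in place of 4 at 24 h against 0 h, 1 in place of 0 from 4 to 12 h and 2 in place of 5 in the F-test. Fitting only the times compared gave 1 in place of 0 from 12 to 24 h and 2 in place of 1 from 24 to 48 h. With single arrays left out the counts ran from 3 to 4 at 24 h, stayed at 3 at 48 h and at 0 at 4 h, all against 0 h, and ran from 0 to 1 from 12 to 24 h, 0 to 1 from 24 to 48 h and 4 to 6 in the F-test. No result reversed. For type A, the deviations of same-numbered arrays correlated at -0.36 to 0.42, and 7 of 15 arrays matched their own number best. For type B the range was -0.1 to 0.11, with 3 of 15 such matches. With 3 arrays per time, these values cannot decide whether arrays with the same number shared a culture. Whether the replicate number is a pairing is thus not known. With the replicate block the counts were 0, 2, 4 and 3 at 4, 12, 24 and 48 h against 0 h, 0, 0 and 1 between neighbouring times and 4 in the F-test. Signal near the filter level limits Ccl2, Vegfc on the A arrays and the untested genes. The cause of these differences was not tested.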
